A study of Mus musculus with 48 samples.

Results

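The comparison described here set the striatum of Q140 mice that carry no intact Msh3 allele by label (Q140 Msh3-/-, n = 8 libraries) against that of Q140 mice with a single mutant allele (Q140 Msh3+/-, n = 8 libraries). These 16 of 48 RNA-seq libraries were chosen by their labelled genotype, and they address whether losing the second Msh3 allele adds to losing the first in Q140 striatum. All mice were on a C57BL/6 background and 6 months old, and each of the 2 groups held 4 female and 4 male libraries. Q140 animals were heterozygous for a knock-in of an expanded CAG repeat in Htt, the huntingtin gene, which both groups carry. The other groups were Q140 with both Msh3 alleles (n = 8), Msh3-/- without Q140 (n = 8), Msh3+/- without Q140 (n = 9) and wild type (n = 7). The labels name the corpus striatum as the tissue, and describe neither the Msh3 allele nor how libraries relate to animals. Column names carry a stem that several libraries share, some of them of different genotypes, and its meaning is not given. Of the 2 groups, Q140 Msh3-/- male 2 and male 3 share a stem, and 0 stems occur in both. One mouse per library is assumed; otherwise the p values measure only the spread between samples.

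MSH3 is a subunit of MutS beta, the mismatch repair complex that binds small loops of extruded bases in DNA. Such loops form at CAG repeats, and in mouse models of Huntington's disease MutS beta is needed for the repeat to lengthen with age in striatal cells. The medium spiny neuron (MSN), the projection neuron that makes up most of the striatum, is the cell type most affected in the disease, and its identity genes lose expression in knock-in mice. Repeat length was not measured in these files, so the comparison concerns RNA levels only.

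Library totals were 33.7 to 49.7 M counts (median 44.4 M) in Q140 Msh3-/- and 41.8 to 52.8 M (median 47.2 M) in Q140 Msh3+/-, and 19975 genes had enough reads to be tested. Levels are given as CPM, counts scaled to the size of each library, and changes are log2 fold changes with Q140 Msh3-/- on top. A gene "rose", "fell" or was "called" only past an adjusted p of 0.05, from edgeR's quasi-likelihood test with Benjamini-Hochberg adjustment over all genes. For genes of average log2 CPM of at least 0 (15415 genes), the median standard error of this change was 0.056. The tissue label was met by its markers: Ppp1r1b, which encodes DARPP-32, averaged 1869 ± 123 CPM in Q140 Msh3-/- and 1638 ± 123 CPM in Q140 Msh3+/- (SD, n = 8 each). Q140 Msh3+/- female 1 stood apart most widely. It carried far more choroid plexus RNA than any other library of its group, and results that rest on it are given with and without it. By Dixon's criterion 4 other libraries stood apart, each in 1 list or gene, and these are given below with and without that library.

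Between Q140 Msh3-/- and Q140 Msh3+/- striatum 3 of 19975 genes were called, 0.015% of those tested. Msh3 rose, while Cmya5, which encodes the muscle protein myospryn, and the antisense transcript AW495222 fell. All 3 lie on chromosome 13 within 1.35 Mb of Msh3. Beyond 20 Mb from Msh3 no gene was called by edgeR, and the smallest adjusted p there was 0.162. An unadjusted p under 0.05 was reached by 1173 genes (5.87%), of which 544 had a higher and 629 a lower level in Q140 Msh3-/-, and DESeq2 called 25 genes in all.

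The start regions of the 2 genes that fell are shown because they belong to the calls of the comparison; that of Msh3 is not shown here. They run from 250 bases before to 50 bases after each start (RefSeq, GRCm38.p6, minus strand for both), 5′ to 3′. Capitals mark the GC box CCGCCC or its reverse complement GGGCGG, the core letters bound by Sp1-type factors.
Cmya5, chr13:93144675-93144974: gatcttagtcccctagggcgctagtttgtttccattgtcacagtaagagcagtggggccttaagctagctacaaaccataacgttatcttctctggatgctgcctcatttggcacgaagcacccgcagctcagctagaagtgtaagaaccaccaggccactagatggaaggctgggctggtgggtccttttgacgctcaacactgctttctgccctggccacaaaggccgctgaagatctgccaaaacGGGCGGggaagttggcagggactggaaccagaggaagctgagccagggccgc
AW495222, chr13:93719126-93719425: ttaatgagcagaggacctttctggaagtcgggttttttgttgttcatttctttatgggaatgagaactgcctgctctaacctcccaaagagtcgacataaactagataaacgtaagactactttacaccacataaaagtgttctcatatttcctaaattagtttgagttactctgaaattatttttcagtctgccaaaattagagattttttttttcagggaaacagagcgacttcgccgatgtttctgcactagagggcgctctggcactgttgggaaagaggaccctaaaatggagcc
The Cmya5 window held 1 such box, and these letters did not occur in the AW495222 window. The box occurs in 11714 of 32851 promoter windows of the same length (35.7%), so a match is a description only.

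Msh3 (chromosome 13, 92211872 to 92355003, minus strand, GRCm38) had 118 to 135 CPM with a median of 123 in Q140 Msh3-/-, against 73 to 81.8 CPM with a median of 77.1 in Q140 Msh3+/-. All 8 Q140 Msh3-/- libraries lay above all 8 Q140 Msh3+/- libraries. The change was 0.70 on the log2 scale (95% interval 0.63 to 0.78, adjusted p = 1.34e-19), a 1.63-fold higher level. Msh3 read counts therefore separated the labelled groups without overlap, but in the direction opposite to a loss of RNA. Q140 mice with both alleles had 29.5 to 33.2 CPM, so reads were higher at each step of mutant allele number. Without Q140 the same order held, with a mean of 119.7 ± 7.03 CPM in Msh3-/- (n = 8), 77.44 ± 4.74 CPM in Msh3+/- (n = 9) and 30.98 ± 1.46 CPM in wild type (n = 7). Gene totals do not show which exons the reads came from, and whether the RNA of the mutant allele can be translated was not tested. The group names are used below as the labels give them.

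Cmya5 (93040713 to 93144724, minus strand) had 7.01 to 10.2 CPM with a median of 8.49 in Q140 Msh3-/-, against 9.69 to 13.8 CPM with a median of 12.5 in Q140 Msh3+/-. In 7 of 8 Q140 Msh3-/- libraries the level was below every Q140 Msh3+/- library. Its change was -0.51 (95% interval -0.69 to -0.34, adjusted p = 0.00303), with estimates of -0.52 in females and -0.51 in males. With plate row as a covariate the change was -0.47 with an adjusted p of 0.0897. Myospryn is known as a large anchoring protein of striated muscle.

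AW495222 (93706182 to 93719175, minus strand) is annotated as antisense in GENCODE M21 and lies wholly within Dmgdh on the other strand. It had 0.421 to 1.11 CPM with a median of 0.591 in Q140 Msh3-/-, against 1.15 to 1.85 CPM with a median of 1.61 in Q140 Msh3+/-. The groups did not overlap. The change was -1.18 (95% interval -1.52 to -0.83, adjusted p = 0.000118), with -1.51 in males, where it was called (adjusted p = 0.00178). The library kit keeps strand, but the counting setting is not given in the sources used here, so its reads cannot be told apart from those of Dmgdh with certainty.

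The same Msh3 step without Q140, Msh3-/- against Msh3+/-, shares no library with the Q140 comparison and also called 3 genes (0.015%). Msh3 rose by 0.63 and Cmya5 fell by 0.51 (adjusted p = 0.00235) there, beside 0.70 and -0.51 on the Q140 background. The third gene, F2r, which encodes the thrombin receptor PAR1, rose by 0.49 (adjusted p = 0.0224). On the Q140 background F2r had 5.72 to 8.14 CPM with a median of 6.83 in Q140 Msh3-/-, against 5.1 to 6.11 CPM with a median of 5.48 in Q140 Msh3+/-. Its change of 0.29 there missed the threshold (adjusted p = 0.512), although 7 of 8 Q140 Msh3-/- libraries were above all Q140 Msh3+/- libraries. AW495222 differed by -0.45 without Q140 (adjusted p = 0.912).

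Among 216 tested genes within 20 Mb of Msh3, 17 had an unadjusted p under 0.05 in the Q140 comparison (7.87%, against 5.87% of all genes), and within 5 Mb it was 12 of 59 (20.3%). In both comparisons 7 genes had such a p, and all 7 had the same sign in each. Besides F2r, Cmya5 and AW495222 they included Rasgrf2, Iqgap2 and Tmem174. Rasgrf2, a guanine nucleotide exchange factor for Ras that lies 0.0802 Mb from Msh3, had 15.1 to 25.5 CPM with a median of 22.5 in Q140 Msh3-/-, against 23.9 to 44.4 CPM with a median of 33.5 in Q140 Msh3+/-. Its change was -0.62 (adjusted p = 0.223) with Q140 and -0.72 (adjusted p = 0.189) without. Tmem174, a transmembrane protein gene at the edge of detection, averaged 0.0405 CPM in Q140 Msh3-/- and 0.236 CPM in Q140 Msh3+/-, a change of -2.48 (adjusted p = 0.216), and -2.39 without Q140. Iqgap2, a scaffold protein gene of the IQGAP family, had -0.23 and -0.18.

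Zfyve16, 0.132 Mb from Msh3, had a change of -0.14 (adjusted p = 0.695). Homer1, a postsynaptic scaffold gene 0.945 Mb away that also responds to neuronal activity, had 0.21 (adjusted p = 0.854). Flanking DNA of the targeted allele was not examined, and its part in these differences was not tested.

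**Figure D1:**
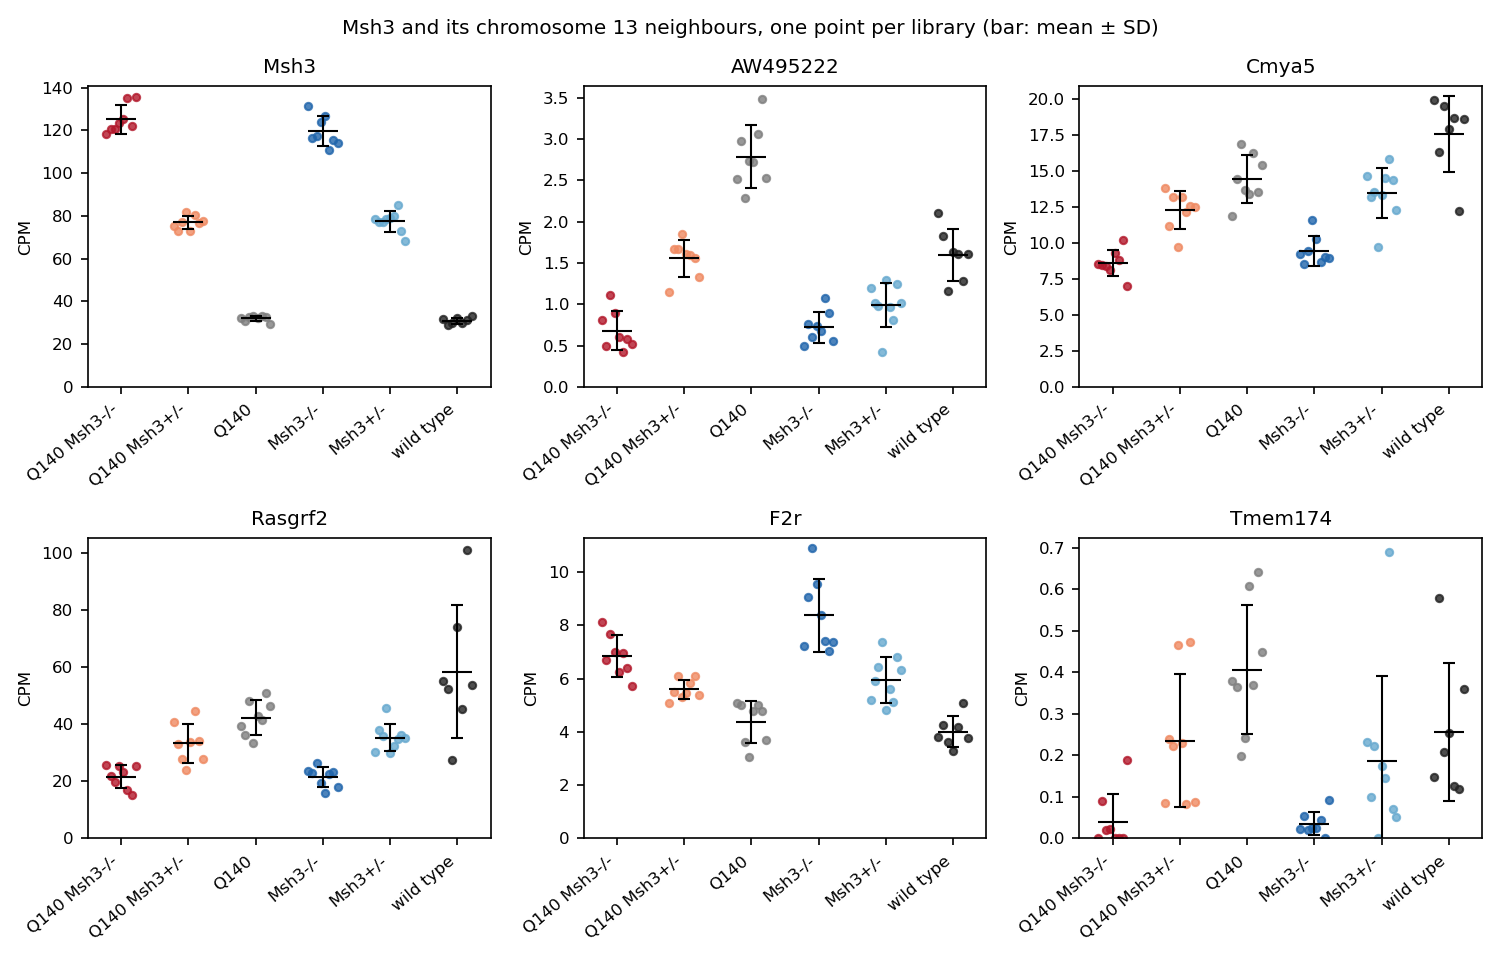
Level in CPM (vertical axis, from 0) of Msh3, AW495222, Cmya5, Rasgrf2, F2r and Tmem174 in each of the 6 groups; points are libraries and bars are mean ± SD. Msh3 reads are higher with each mutant allele on either Htt genotype, at 118 to 135 CPM in Q140 Msh3-/- and 73 to 81.8 CPM in Q140 Msh3+/-.

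No marker of medium spiny neurons was called in Q140 Msh3-/- against Q140 Msh3+/-, yet all 32 shared MSN markers had a higher estimate in Q140 Msh3-/-. The median over the list was 0.11 on the log2 scale (range 0.03 to 0.23), against 0.000373 over all genes tested. An unadjusted p under 0.05 with a higher level was reached by 15 of the 32, against 2.72% of all genes, and by none with a lower level. The smallest adjusted p in the list was 0.307. Of the 32 markers, 31 were called lower in Q140 than in wild type (median -0.40), against 2043 of all 19975 genes. The list is thus largely part of the genes lower in Q140 that are followed below, and the 2 results are not separate. Each library's mean over the list ran from 9.17 to 9.34 log2 CPM (median 9.28) in Q140 Msh3-/-, against 9.05 to 9.27 (median 9.14) in Q140 Msh3+/-. In 5 of 8 Q140 Msh3+/- libraries this mean was below every Q140 Msh3-/- library, and 4 Q140 Msh3-/- libraries were above every Q140 Msh3+/- library. In bulk tissue, fewer cells of a type and less RNA per cell cannot be told apart.

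The genes with the smallest p in this list were Arpp21 and Ppp1r1b, which encode the cyclic AMP-regulated phosphoproteins ARPP-21 and DARPP-32. Arpp21 had 1252 to 1637 CPM with a median of 1473 in Q140 Msh3-/-, against 1094 to 1425 CPM with a median of 1258 in Q140 Msh3+/-. In 6 of 8 Q140 Msh3-/- libraries the level was above all Q140 Msh3+/- libraries, and the change was 0.21 (95% interval 0.09 to 0.33, adjusted p = 0.307). Ppp1r1b had 1762 to 2048 CPM with a median of 1801 in Q140 Msh3-/-, against 1494 to 1829 CPM with a median of 1595 in Q140 Msh3+/-. In 7 of 8 Q140 Msh3+/- libraries Ppp1r1b was below all Q140 Msh3-/- libraries, and the change was 0.19 (95% interval 0.08 to 0.30, adjusted p = 0.308).

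Scn4b, a sodium channel beta subunit, had 1304 to 1724 CPM (median 1541) in Q140 Msh3-/- and 1181 to 1527 CPM (median 1276) in Q140 Msh3+/-, a change of 0.22 (95% interval 0.06 to 0.38, adjusted p = 0.598). Pde10a, the striatal cyclic nucleotide phosphodiesterase, had 2134 to 2753 CPM (median 2379) in Q140 Msh3-/- and 1903 to 2396 CPM (median 1989) in Q140 Msh3+/-, a change of 0.19 (adjusted p = 0.695). The ranges of both genes overlapped between the groups. Of the 32 markers, 15 had a 95% interval wholly above 0 and 17 had one that held 0, with the highest upper bound at 0.388. Per gene, therefore, a rise of more than 1.31-fold lay outside every interval in the list.

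**Figure D2:**
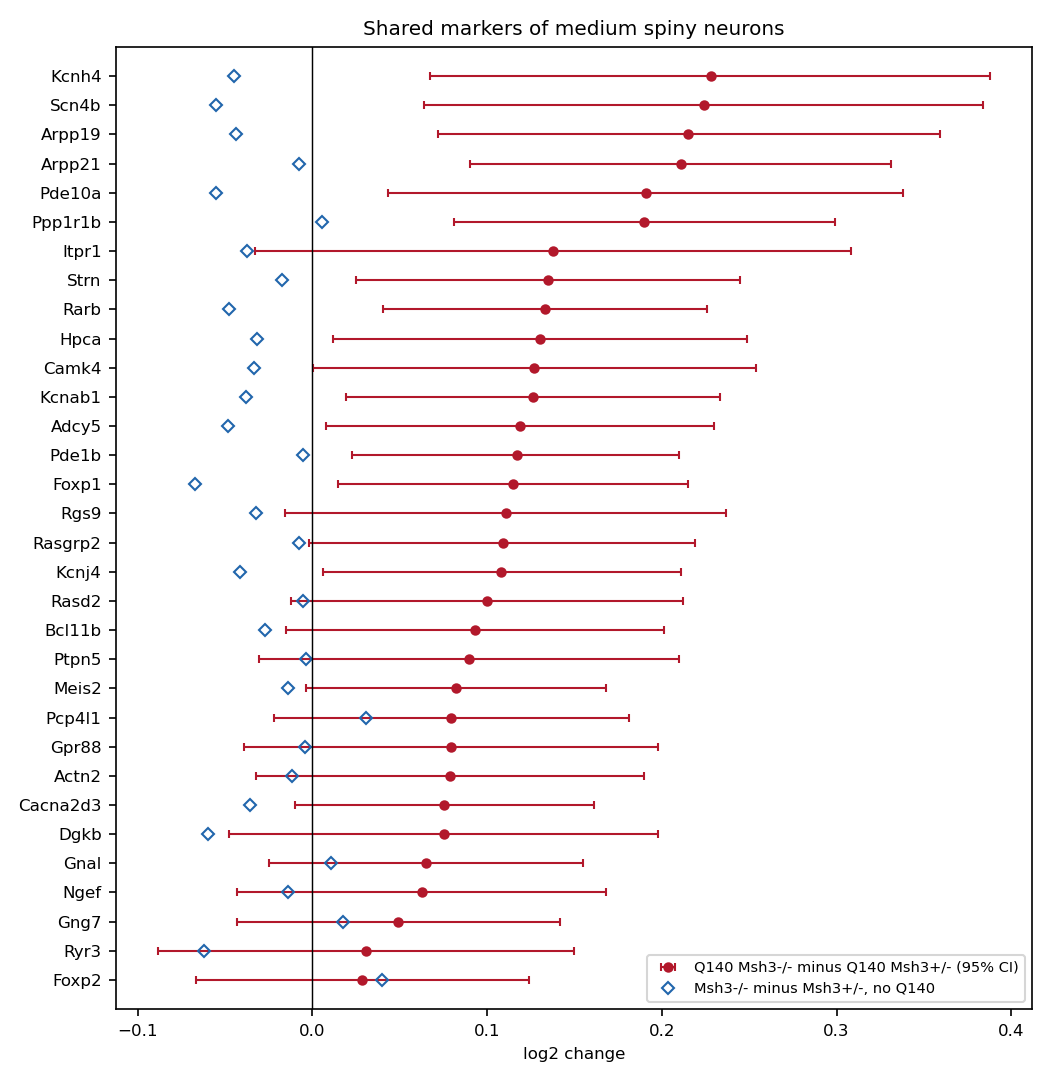
Log2 change of each of the 32 shared MSN markers (rows) for Q140 Msh3-/- minus Q140 Msh3+/- (filled circles with 95% intervals) and for Msh3-/- minus Msh3+/- without Q140 (open diamonds). All 32 circles are above 0 and 15 intervals clear it, while 27 of 32 diamonds are below 0.

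The step without Q140 gave a different picture for these neurons. Of the 32 shared MSN markers 27 had a lower and 5 a higher estimate in Msh3-/- than in Msh3+/-, with a median of -0.029 and no unadjusted p under 0.05 in either direction (5.23% of all genes had one). The difference between the 2 steps, with Q140 minus without, had a median of 0.14 over the list and was positive for 31 of 32 genes. No member was called for that difference, and 11 had an unadjusted p under 0.05, all positive (2.92% of all genes were positive with such a p). Over all genes the test of the difference called 0 of 19975 by edgeR (0%) and 0 by DESeq2, with 1220 genes under an unadjusted p of 0.05 (6.11%). With only the 4 groups of this contrast in the fit 1 gene was called.

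Markers of the indirect-pathway neurons, which carry the D2 dopamine receptor, had a median change of 0.096 with 8 of 9 positive. Penk, the enkephalin precursor, had 1318 to 1679 CPM (median 1485) in Q140 Msh3-/- and 1034 to 1564 CPM (median 1209) in Q140 Msh3+/-, a change of 0.23 (95% interval 0.08 to 0.39, adjusted p = 0.457). In 5 of 8 Q140 Msh3+/- libraries Penk was below all Q140 Msh3-/- libraries. Gpr6, an orphan receptor of these neurons, had 76.6 to 84.6 CPM (median 77.1) in Q140 Msh3-/- and 59.9 to 79.7 CPM (median 66.8) in Q140 Msh3+/-, a change of 0.19 (adjusted p = 0.385). Drd2 had 0.17 (adjusted p = 0.711), and Adora2a, an adenosine receptor gene, 0.16 (adjusted p = 0.837).

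Markers of the direct-pathway neurons, which carry the D1 receptor, were mixed, with a median of 0.051 and 6 of 10 positive. Drd1 itself had 261 to 312 CPM (median 296) in Q140 Msh3-/- and 237 to 282 CPM (median 250) in Q140 Msh3+/-, a change of 0.19 (95% interval 0.09 to 0.29, adjusted p = 0.223). In 6 of 8 Q140 Msh3-/- libraries Drd1 was above all Q140 Msh3+/- libraries. Isl1, a transcription factor of these neurons, had -0.12 (adjusted p = 0.728), and Tac1, the substance P precursor, had -0.04 (adjusted p = 0.978). Both Isl1 and Tac1 were higher in Q140 than in wild type (0.35 and 0.18, adjusted p = 1.43e-06 and 0.0149), the opposite of Drd1 (-0.57).

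Other neuronal groups that serve MSN signalling had small positive medians and no called member. Genes of G protein and cyclic AMP signalling had a median of 0.050 with 25 of 30 positive, led by the regulators of G protein signalling Rgs14 (0.23, adjusted p = 0.458) and Rgs4 (0.19, adjusted p = 0.698). Potassium channel subunits had a median of 0.070 with 35 of 41 positive, led by Kcnip3 (0.18, adjusted p = 0.301) and Kcnq5 (0.13, adjusted p = 0.497). Calcium channels, calcium release and calcium-dependent kinases had a median of 0.074, with an unadjusted p under 0.05 for 10 higher and 2 lower members of 32, against 2.72% higher and 3.15% lower of all genes. Itpka, an inositol trisphosphate kinase, had 0.16 (adjusted p = 0.640) and Camk2b, a calmodulin kinase subunit, 0.11 (adjusted p = 0.673). Glutamate and GABA receptor subunits had a median of 0.015 and opposite leading genes, Gabrd at 0.14 and Gabra2 at -0.40 (adjusted p = 0.702 and 0.705). Without Q140 the medians of these 4 lists were -0.028, -0.016, -0.058 and -0.022.

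Activity-regulated genes had a median of 0.063 with 19 of 22 positive, but here the step without Q140 had a median of the same sign (0.086, 16 of 22 positive). Egr3, an immediate-early transcription factor, had 0.20 (adjusted p = 0.837).

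**Figure D3:**
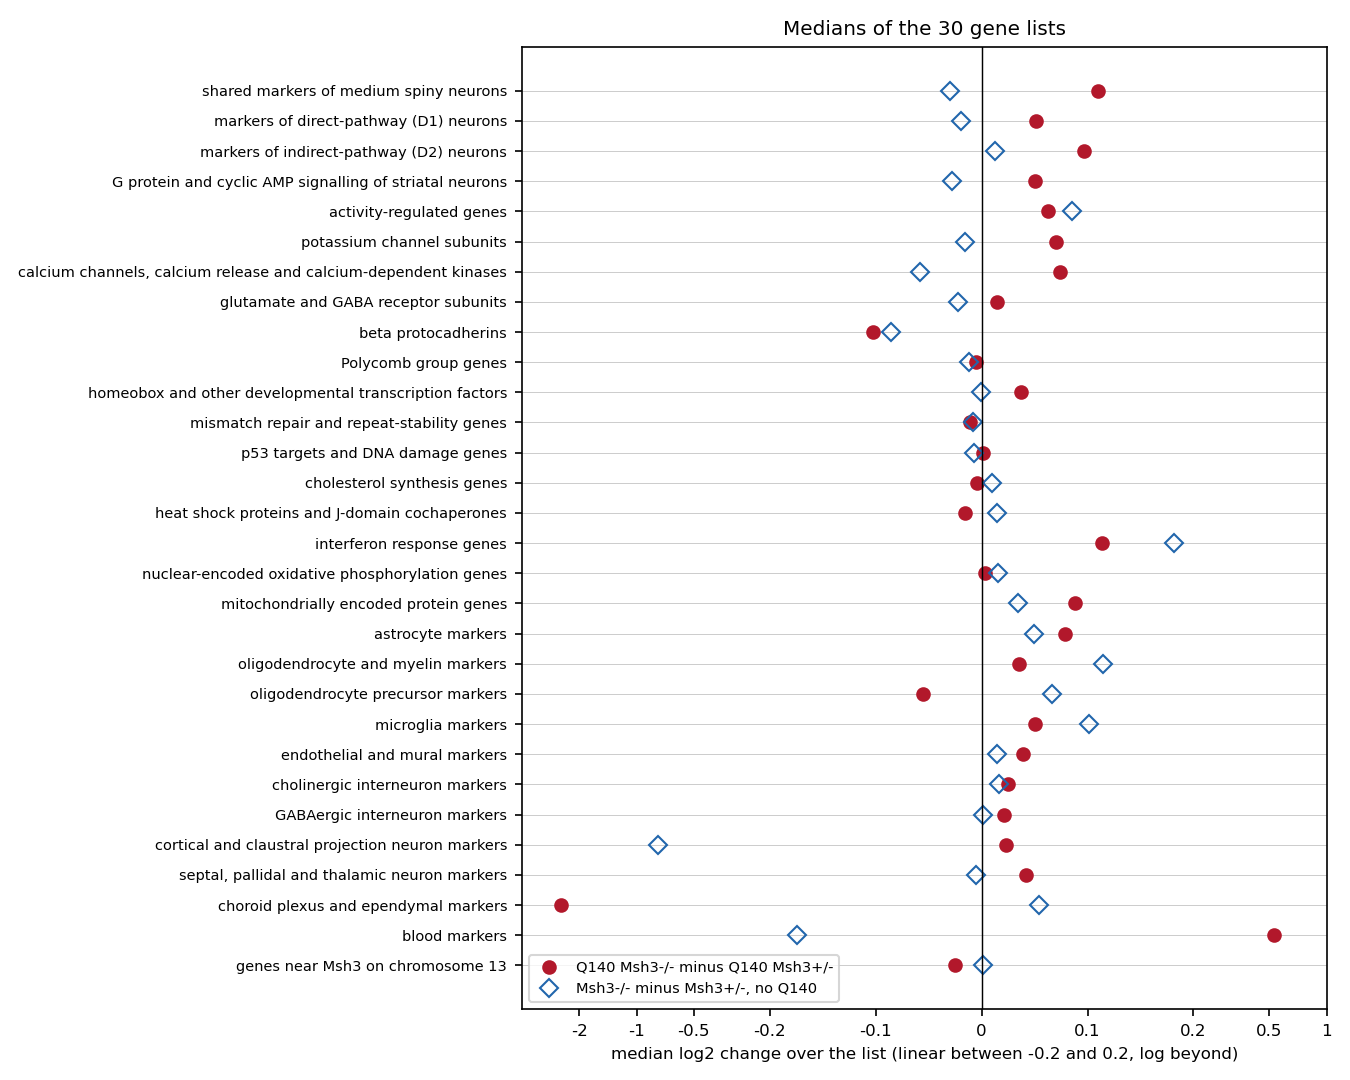
Median log2 change of each of 30 gene lists (rows) for Q140 Msh3-/- minus Q140 Msh3+/- (filled circles) and Msh3-/- minus Msh3+/- without Q140 (open diamonds); the axis is linear between -0.2 and 0.2 and logarithmic beyond. Shared MSN markers sit at 0.11 and -0.029, while interferon genes are positive in both (0.11 and 0.18).

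The genes that Q140 itself changes were then followed through the second-allele step. Q140 with both Msh3 alleles differed from wild type in 3969 genes (19.9% of those tested), 1926 higher and 2043 lower. Neither group shares a library with Q140 Msh3-/- or Q140 Msh3+/-, though some of their libraries share a column-name stem. Of these 3969 genes, 3401 (85.7%) had an estimate in Q140 Msh3-/- against Q140 Msh3+/- of the sign opposite to the Q140 change. Singly, 2 were called in that step: AW495222 with the sign opposite to its Q140 change, and Cmya5 with the same sign (-0.51, beside -0.29 in Q140 against wild type). An unadjusted p under 0.05 was reached by 545 in the opposite and 11 in the same direction as the Q140 change, against 5.87% of all genes. For the step without Q140 these counts were 59 and 135, against 5.23% of all genes.

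Genes lower in Q140 than in wild type had a median change of 0.060 in Q140 Msh3-/- against Q140 Msh3+/- (quartiles 0.029 and 0.10), and 1811 of 2043 (88.6%) were positive. A higher level at an unadjusted p under 0.05 was found for 339 of them (16.6%, against 2.72% of all genes). Genes higher in Q140 had a median of -0.047 (quartiles -0.092 and -0.013), 1590 of 1926 (82.6%) were negative, and 206 (10.7%, against 3.15% of all genes) were lower at an unadjusted p under 0.05. The 16006 genes not called for Q140 had a median of -0.0013, with 49.3% positive. These medians are close in size to the standard error of a single gene.

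Without Q140 the medians had the opposite sign. The genes lower in Q140 had a median of -0.019 in Msh3-/- against Msh3+/-, with 33.6% positive, and the genes higher in Q140 had 0.0083, with 55.7% positive. Of the 3969 genes, 38.8% had the sign opposite to the Q140 change there. Genes are not independent replicates, and these counts carry no test.

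Among the genes called for Q140 and of average log2 CPM of at least 0, the shift was graded with the size of the Q140 change. Over all 15415 genes at that level, called or not, the second-allele change and the Q140 change were weakly correlated across genes (r = -0.0892). For the step without Q140, r was 0.0492. The first r includes genes that rest on Q140 Msh3+/- female 1, such as Ttr (-5.20 for the second allele, -3.08 for Q140). It was not computed without that library. In wild type, Ttr reached 562 CPM in male 2, against a group median of 8.42. The 41 genes that were lower in Q140 by more than 1 log2 unit had a median of 0.32 in Q140 Msh3-/- against Q140 Msh3+/-, and 40 of the 41 were positive. The median was 0.15 for the 176 genes lower by 0.5 to 1, 0.083 for the 656 lower by 0.25 to 0.5, and 0.045 for the 1076 lower by less. On the other side it was -0.032, -0.081 and -0.13 for the 1149, 495 and 120 genes in the matching classes, and -0.27 for the 11 genes higher by more than 1. Without Q140 the medians of all 8 classes lay between -0.029 and 0.023.

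**Figure D4:**
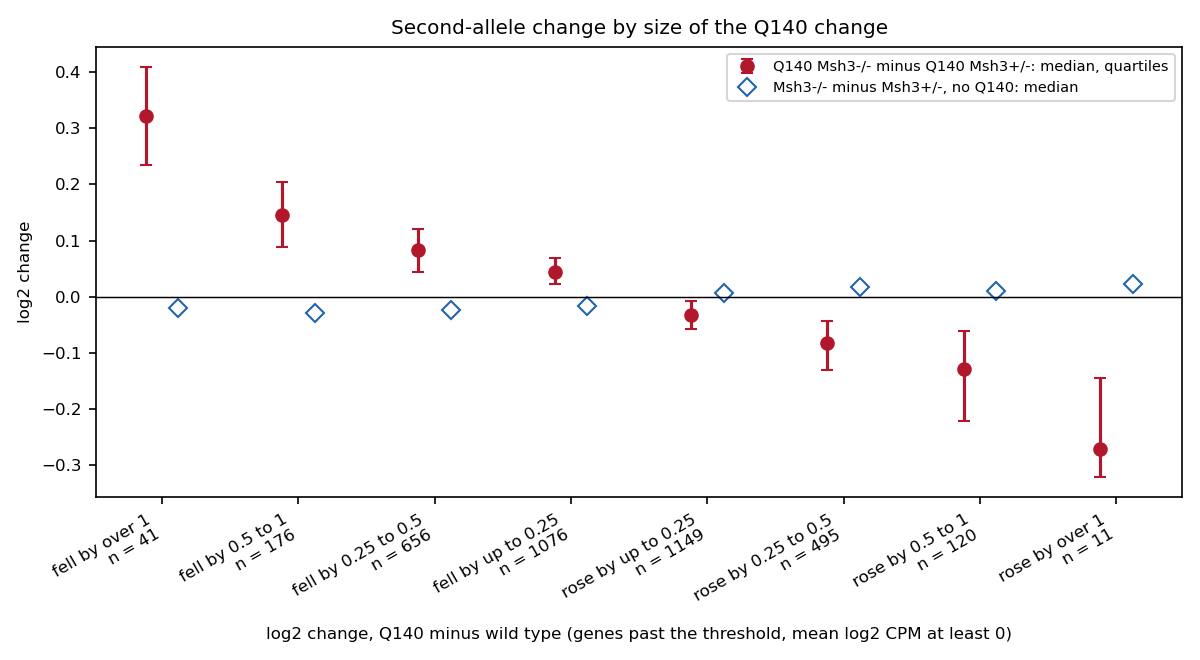
Log2 change by Msh3 step (vertical axis) for genes grouped by the direction and size of their change in Q140 against wild type (horizontal axis, with the number of genes). Filled circles with quartile bars are Q140 Msh3-/- minus Q140 Msh3+/- and run from 0.32 to -0.27; open diamonds are Msh3-/- minus Msh3+/- without Q140 and stay between -0.029 and 0.023.

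By library, the mean over the 2043 genes lower in Q140 ran from 5.39 to 5.52 log2 CPM (median 5.46) in Q140 Msh3-/-, against 5.32 to 5.46 (median 5.37) in Q140 Msh3+/-. In 6 of 8 Q140 Msh3+/- libraries it was below every Q140 Msh3-/- library, and the group means differed by 0.074, with SDs of 0.041 in Q140 Msh3-/- and 0.051 in Q140 Msh3+/-. For the 1926 genes higher in Q140 it ran from 3.72 to 3.82 (median 3.78) in Q140 Msh3-/-, against 3.79 to 3.89 (median 3.86) in Q140 Msh3+/-. Here 6 of 8 Q140 Msh3+/- libraries were above every Q140 Msh3-/- library. The groups therefore overlapped in both sets, with Q140 Msh3+/- female 1 and male 4 within the Q140 Msh3-/- range. Chosen as they were, the same means were 5.22 ± 0.099 and 3.98 ± 0.062 in Q140 (n = 8), and 5.55 ± 0.037 and 3.68 ± 0.024 in wild type (n = 7).

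**Figure D5:**
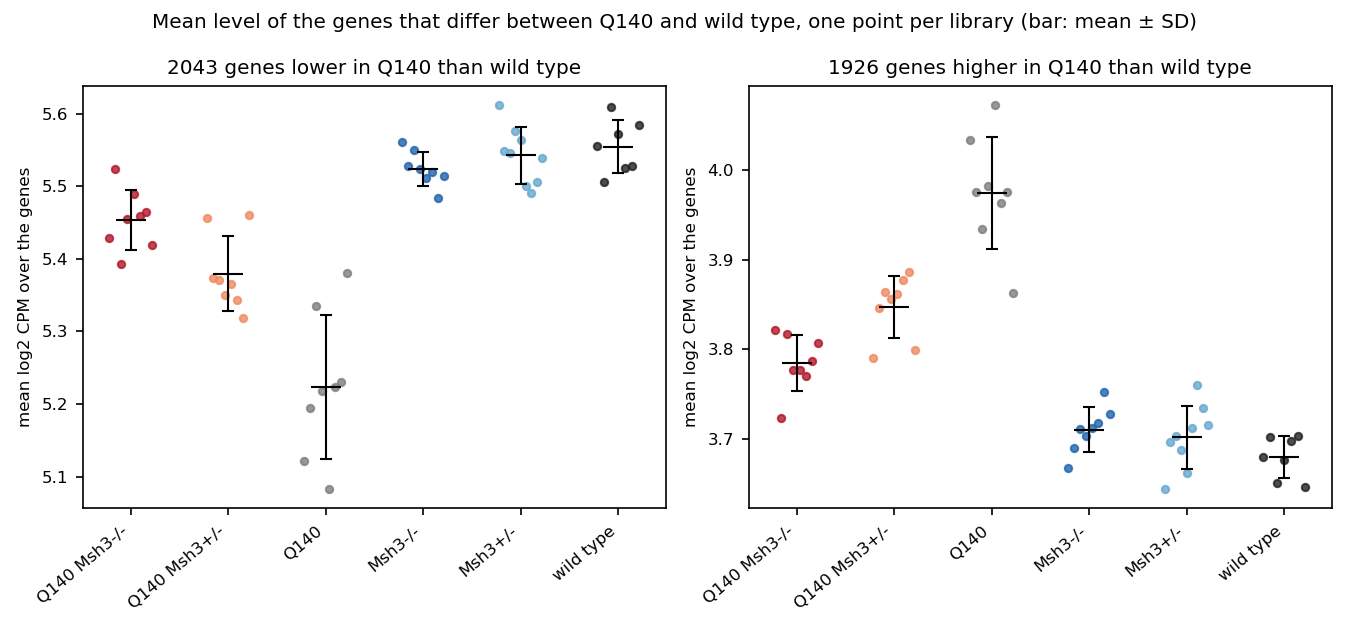
Mean log2 CPM per library (vertical axis, not from 0) over the 2043 genes lower and the 1926 genes higher in Q140 than in wild type, in each of the 6 groups; points are libraries, bars are mean ± SD. Q140 Msh3-/- (5.39 to 5.52) sits above most of Q140 Msh3+/- (5.32 to 5.46) in the left panel and below most of it in the right panel.

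The 7 genes with the smallest p after the 3 called ones were Ankrd35, Gpr153, Nsun7, Igha, Rps6ka4, Kdm3a and Vdr, each at an adjusted p of 0.162. All but Igha were called in Q140 against wild type, with the opposite sign. Ankrd35, an ankyrin repeat gene, had 9.45 to 14.6 CPM (median 12.6) in Q140 Msh3-/- and 8.81 to 11.9 CPM (median 9.62) in Q140 Msh3+/-, a change of 0.32. It was called in males alone (0.46, adjusted p = 0.0458) and without Q140 Msh3+/- female 1 (0.36, adjusted p = 0.0293). Gpr153, an orphan receptor, had 12.9 to 17.1 CPM (median 14.3) in Q140 Msh3-/- and 10.6 to 13.3 CPM (median 11.6) in Q140 Msh3+/-, a change of 0.31, and 7 of 8 Q140 Msh3-/- libraries were above all Q140 Msh3+/- libraries.

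Nsun7, a gene of the RNA cytosine methyltransferase family, had 15.5 to 17.3 CPM (median 16.8) in Q140 Msh3-/- and 16.9 to 21 CPM (median 19.7) in Q140 Msh3+/-, a change of -0.21. Rps6ka4, which encodes the stress-activated kinase MSK2, had a change of 0.21, and Kdm3a, a histone H3K9 demethylase, 0.16. Vdr, the vitamin D receptor, had 0.307 to 0.811 CPM (median 0.515) in Q140 Msh3-/- and 0.0958 to 0.336 CPM (median 0.258) in Q140 Msh3+/-, a change of 1.12. DESeq2 called 22 genes besides the 3 of edgeR, these 7 among them. Of the 22, 8 belong to the choroid plexus list, and 8 were called for Q140, 7 of them with the opposite sign. Mfrp, Tmem72, F5 and Sostdc1 are also among the 22 and outside that list. In the second-minus-first test below, these too rest on Q140 Msh3+/- female 1. DESeq2 was not run without that library.

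Of the genes with the largest changes in Q140 at an average log2 CPM of at least 0, none named here was called for the second allele. Wnt8b, a Wnt ligand, had 1.11 to 2.56 CPM (median 1.66) in Q140 Msh3-/- and 0.719 to 1.36 CPM (median 0.998) in Q140 Msh3+/-, a change of 0.84 (adjusted p = 0.322). Mafa, a basic leucine zipper transcription factor, had 0.65 (adjusted p = 0.325), Dgat2l6 0.51 (adjusted p = 0.673) and Aoah, an acyloxyacyl hydrolase, 0.45 (adjusted p = 0.896). All 4 were lower in Q140 than in wild type, with changes of -1.69, -2, -1.68 and -2.06. Of the genes most raised in Q140 above that level, Tnnt2, cardiac troponin T, had -0.19 (adjusted p = 0.931), Dsg1c, a desmoglein, -0.10 (adjusted p = 0.992), and Ccl28, a chemokine, 0.19 (adjusted p = 0.990). Ddit4l, an inhibitor of mTOR signalling with a change of -1.64 in Q140, had 15.6 to 29.6 CPM (median 24.2) in Q140 Msh3-/- and 15.5 to 24.9 CPM (median 19.4) in Q140 Msh3+/-, a change of 0.26 (adjusted p = 0.861), and 0.34 without Q140 Msh3-/- female 3.

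For Polycomb group genes, which keep developmental genes silent, the median was -0.0057 with 18 of 32 negative, against 49.8% of all genes. Sfmbt2, a Polycomb-associated gene raised in Q140 by 1.27, had 2.8 to 3.84 CPM (median 3.22) in Q140 Msh3-/- and 2.99 to 5.36 CPM (median 4.14) in Q140 Msh3+/-, a change of -0.30 (95% interval -0.59 to -0.01, adjusted p = 0.837). Cbx8, a chromobox subunit of the repressive complex PRC1 raised in Q140 by 0.69, had 6.5 to 8.63 CPM (median 7.56) in Q140 Msh3-/- and 7.87 to 9.98 CPM (median 8.74) in Q140 Msh3+/-, a change of -0.25 (adjusted p = 0.512). Mean levels were 3.28 and 7.47 CPM in Q140 Msh3-/-, and 3.23 and 8 CPM in wild type.

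Beta protocadherins, clustered cell-adhesion genes of neurons, had a median of -0.10 with 19 of 21 negative and 3 lower at an unadjusted p under 0.05, against 49.8% and 3.15% of all genes. Pcdhb3 had 3.79 to 5.21 CPM (median 4.8) in Q140 Msh3-/- and 4.98 to 7.4 CPM (median 5.65) in Q140 Msh3+/-, a change of -0.32 (adjusted p = 0.216). Pcdhb7 had -0.22 (adjusted p = 0.521). Without Q140 Pcdhb7 had -0.23, but Pcdhb3 had only -0.01. The difference between the steps was -0.30 for Pcdhb3 (edgeR, adjusted p = 0.780). Unlike the MSN markers, this list had nearly the same median without Q140 (-0.086, 18 of 21 negative), and the difference between the steps had a median of 0.0046. Its members are closely related neighbours, and how the counting treated shared reads is not given in the sources used here.

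The first allele was set beside the second. Q140 Msh3+/- differed from Q140 in 395 genes (1.98%), 256 higher and 139 lower, against 3 for the second allele. The 256 include Ttr, Mfrp, Slc4a5 and Tmem72, which rest on Q140 Msh3+/- female 1 (Ttr 5.22). The first step was not run without that library. Both steps share the Q140 Msh3+/- libraries, and the first step also shares the Q140 libraries with the choice of Q140-changed genes, so its values are given only side by side. Genes lower in Q140 had a median of 0.060 for the second allele and 0.12 for the first, and genes higher in Q140 had -0.047 and -0.097. Shared MSN markers had 0.11 and 0.20, with 0 and 17 of 32 called higher (1.28% of all genes were called higher for the first). Tested directly, second minus first had a median of -0.099 over these markers, with 0 called and 0 at an unadjusted p under 0.05. Over all genes 1.85% were higher and 2.17% lower at such a p, so 0 of 32 is near the share of all genes. This contrast also uses the Q140 libraries by which the Q140-changed genes were chosen. Arpp21 had 0.21 and 0.31, Scn4b 0.22 and 0.41, Penk 0.23 and 0.39, AW495222 -1.18 and -0.84, Sfmbt2 -0.30 and -0.95, and Ddit4l 0.26 and 0.84. Ppp1r1b had 0.19 and 0.18, Kcnip3 0.18 and 0.083, and Gpr153 0.31 and -0.02. Kcng4, a potassium channel subunit, had 0.30 and -1.17, and Zbtb7c, a zinc finger gene, 0.19 and -0.63. The 0.19 rests on Q140 Msh3-/- male 3 (7.04 CPM, against a group median of 2.63), without which it was -0.11. Htt had 0.03 and 0.14 (adjusted p = 0.979 and 0.0529).

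The difference between the steps, second minus first, was called for 10 genes (0.0501%), all negative. Msh3 was among them at -0.56 (edgeR, adjusted p = 3.05e-07), its second step of 0.70 being smaller than its first of 1.26 on the log2 scale. Its mean was 32.07 CPM in Q140, 76.97 CPM in Q140 Msh3+/- and 125.2 CPM in Q140 Msh3-/-. In CPM, therefore, the second step was not the smaller one. The other 9 were Ttr, Mfrp, Slc4a5, Tmem72, Kcnj13, Aqp1, Prlr, F5 and Sostdc1, of which 5 are in the choroid plexus list, and they rest on 1 library. Ttr, transthyretin, had 3.59 to 33.8 CPM (median 13.3) in Q140 Msh3-/- and 5.46 to 3952 CPM (median 14.1) in Q140 Msh3+/-, the highest value being female 1. Without that library only Msh3 was called. The median standard error of this difference was 0.097 for genes of log2 CPM of at least 0. A failure to call it does not show that the steps are of equal size.

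The choroid plexus and ependymal list had a median of -2.48 in Q140 Msh3-/- against Q140 Msh3+/-, with 10 of 15 lower at an unadjusted p under 0.05 and none called by edgeR. Its mean ran from -0.051 to 1.3 log2 CPM in Q140 Msh3-/-, against -0.12 to 0.96 in 7 Q140 Msh3+/- libraries and 4.74 in female 1. Without female 1 the median was 0.060, with 13 of 15 positive and none at an unadjusted p under 0.05. Mfrp, Slc4a5, Tmem72 and Prlr, with changes of -4.45, -4.36, -3.92 and -3.12, and Otx2, a homeobox gene at -2.48, move with that library, as does Enpp2, autotaxin, which is also an oligodendrocyte gene (-1.14 with, -0.0018 without). Msx1, listed with developmental factors, had -0.76 with this library and -0.04 without it. The shared MSN markers had a median of 0.11 with and without female 1.

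Homeobox and other developmental factors had a median of 0.037 over 25 tested of 34. Mismatch repair and repeat-stability genes other than Msh3 had a median of -0.011 and no member at an unadjusted p under 0.05, with Rpa1, a single-strand DNA binding protein, at 0.06 and the exonuclease Exo1 at -0.28 (adjusted p = 0.901 and 0.934). p53 targets and DNA damage genes had 0.0015, led by the kinase Plk2 at 0.12 (adjusted p = 0.726). Without Q140 Msh3+/- female 1, which stood apart in the p53 list, its median was 0.037. Of its 24 genes 4 were then higher at an unadjusted p under 0.05, against 1 with that library. Over all genes 2.72% were higher at such a p with that library, and the share without it is not given here. Cholesterol synthesis genes had -0.0042, with Pmvk at -0.07 and Tm7sf2 at -0.08, and 0.0031 without female 1. Heat shock genes had -0.015 (-0.012 without Q140 Msh3-/- male 2), with the inducible chaperone Hspa1a at -0.54 (adjusted p = 0.516) and its near-identical neighbour Hspa1b at -0.46 (adjusted p = 0.886). Nuclear-encoded respiratory chain genes had 0.0028 (-0.0020 without female 1), with Cyc1 at -0.07 and Ndufs3 at 0.06.

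Interferon response genes had a median of 0.11 with 20 of 25 positive and none at an unadjusted p under 0.05, and without Q140 their median was 0.18 with 25 of 25 positive. Leaving out Q140 Msh3+/- female 2, which stood apart in the interferon list, gave 0.177, with 22 of 25 positive and 2 higher at an unadjusted p under 0.05. H2-K1, a class I antigen-presenting molecule, had 0.22 and Rtp4 0.35 (adjusted p = 0.886 and 0.893). Glial and vascular markers had no called member. Astrocyte markers had a median of 0.079 with 13 of 16 positive. An unadjusted p under 0.05 was reached by 3 of them, against 5.87% of all genes. The glycolytic enzyme gene Aldoc was at 0.13 and the glutamate transporter Slc1a3 at 0.09. The astrocyte mean ran from 6.90 to 7.00 log2 CPM in Q140 Msh3-/- and 6.68 to 6.93 in Q140 Msh3+/-. This shift had the same sign as that of the MSN markers, and its part in that result was not tested. Without Q140 the astrocyte list also averaged higher in Msh3-/- (7.03) than in Msh3+/- (6.93), as did the microglial list (4.71 and 4.60). Microglial markers had 0.050 (15 of 16 positive, Csf1r 0.10), and oligodendrocyte and myelin markers 0.035 (Mobp 0.14). Oligodendrocyte precursor markers had -0.055 (Bmp4 -0.30, Gpr17 0.10), and -0.046 without Q140 Msh3+/- female 1. Bmp4 was highest in that library (2.45 CPM, against a group median of 1.41), and its change without it is not given here. Endothelial and mural markers had 0.039 (Vwf 0.18, Ly6c1 0.14).

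Markers of neurons other than MSNs had small pooled medians. Cholinergic interneuron markers had 0.025 (Gbx2 0.33, Slc17a8 0.07), and 0.054 without Q140 Msh3+/- male 4, the library that stood apart there. GABAergic interneuron markers had 0.021 (Pthlh 0.13, Cox6a2 0.10), and -0.0038 without female 1. Cortical and claustral markers had 0.023 (Nptx1 0.16, besides Rasgrf2), and -0.019 without female 1. That pooled value covers opposite medians by sex, -0.84 in females (11 of 14 negative) and 0.57 in males (12 of 14 positive), and the step without Q140 had -0.77. Septal, pallidal and thalamic markers had 0.042 (Zfhx4 -0.13, Gbx1 0.22). None of these genes was called.

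The sexes were compared last. The second-allele step differed between females and males for 0 genes by edgeR (0%), with 887 under an unadjusted p of 0.05 (4.44%). In females alone 1 gene was called (0.00501%), Msh3 at 0.65, and in males alone 3 (0.015%), Msh3 at 0.75, AW495222 and Ankrd35. Genes lower in Q140 had medians of 0.054 in females and 0.067 in males, and genes higher in Q140 had -0.040 and -0.055. Shared MSN markers had 0.060 in females (31 of 32 positive) and 0.16 in males (32 of 32 positive), with 0 and 16 higher at an unadjusted p under 0.05, against 1.75% and 3.54% of all genes. Arpp21 had 0.11 in females and 0.31 in males, and the difference between the sexes was not called for any of these genes. Other lists also had higher medians in males: mitochondrially encoded protein genes had -0.030 in females and 0.18 in males (0 and 7 of 13 higher at an unadjusted p under 0.05), activity-regulated genes -0.071 and 0.20, and cortical and claustral markers -0.84 and 0.57. Their part in the MSN values was not tested.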

How the data were processed

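RNA of 48 striatal libraries was made with RNeasy columns and a stranded TruSeq kit, per the labels' protocols. The authors deposited whole-number read counts per gene, unscaled. They also deposited FPKM values, which divide those counts by gene length and total and served here only as an alternative. STAR 2.7.5c, SAMtools 1.10, HTSeq 0.12.3 and the builds GRCm38 and mm10 are named in the submitters' processing notes; annotation release, strand setting and gene length definition are not given in the sources used here. Group, sex and replicate number came from the labels. Over all libraries totals were 33.7 to 52.8 M counts, TMM factors 0.956 to 1.09, and untested genes held 0.0383% of the counts.

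The test was edgeR 4.0.16 (R 4.3.3): genes kept by filterByExpr (minimum count 10, minimum total 15, by group), TMM scaling, and a robust quasi-likelihood fit of group and sex to all 48 libraries, which share 1 estimate of spread (biological coefficient of variation 10.3%). Contrasts were two-sided and adjusted by Benjamini-Hochberg over 19975 of 48795 genes, with a threshold of 0.05. CPM use TMM-scaled totals, log2 CPM add a prior count of 1, and intervals are 95% intervals of the fit. GENCODE M21 on GRCm38 gave positions for 19893 of the genes tested. The scripts were tested on simulated counts with known changes.

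The members and the 30 gene lists were chosen with earlier results of these data known, and the list of genes near Msh3 was picked from such results. Lists are described by counts and medians, with no test of their own. Named genes are Msh3 and Htt, the largest called changes in each comparison among genes of average log2 CPM of at least 0, up to 4 called members of each list or up to 2 with the smallest p where none was called, and further genes added with results known. Alternatives used DESeq2 1.42.0 and limma 3.58.1. A few single-gene results are left out.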

Additional observations from a re-analysis of the deposited data

Results flagged for a closer look

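Each group of 8 libraries was checked for a library far from the others in the gene lists and in the genes described in full, 118 sets of values in all. In 8 sets the outermost library stood apart by Dixon's criterion, where chance alone gives about 5.9.

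In Q140 Msh3-/- the mean of the heat shock list was 5.51 log2 CPM in male 2, against 5.66 to 5.79 in the other 7 libraries. Ddit4l was at 3.96 log2 CPM in Q140 Msh3-/- female 3, against 4.47 to 4.89 in the others. In Q140 Msh3+/- female 1 the choroid plexus and ependymal list was at 4.74 log2 CPM, against -0.117 to 0.961 in the others. Ttr was at 11.9 in that library, against 2.45 to 5.36, Enpp2 at 11.1, against 7.43 to 7.65, and the p53 and DNA damage list at 3.87, against 3.5 to 3.66. The interferon list was at 2.13 in Q140 Msh3+/- female 2, against 1.34 to 1.5 in the others, and cholinergic interneuron markers were at 4.26 in Q140 Msh3+/- male 4, against 3.93 to 4.06.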

How the results depend on the processing

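Of the 3 genes called between Q140 Msh3-/- and Q140 Msh3+/-, Msh3 and AW495222 were called under every alternative run and Cmya5 under all but plate row as a covariate. DESeq2 called 25 genes, and leaving out 1 library in turn gave 3 to 6, the 6 without Q140 Msh3-/- female 3, where Ankrd35, Igha and Rps6ka4 were added. The difference between the steps with and without Q140 was called for 1 gene when only the groups compared were fitted, against 0. The second-minus-first count of 10 became 4 with at least 1 CPM in 8 libraries, 21 with no sex covariate or with DESeq2, and 1 with plate column, plate row, only the groups compared, limma on log2(FPKM + 0.1) or log2(FPKM + 1), no FPKM filter, or without Q140 Msh3+/- female 1. With the replicate number as a block it was 1, as with the same groups and no block. The blocked counts were 3 between Q140 Msh3-/- and Q140 Msh3+/-, 2 without Q140, against 3, and 0 for the difference between these steps. The deviations of same-numbered libraries of the 2 Q140 groups correlated at -0.152 to 0.151 over 8 pairs, and 0 of 8 correlated best with their own number. The labels give a replicate number without saying whether it links libraries, and a small shared effect was not tested.

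The median of the genes lower in Q140 was 0.0266 to 0.0703 over all alternatives, that of the genes higher in Q140 -0.0767 to -0.041, and that of the shared MSN markers 0.0794 to 0.131; these alternatives were added with results known. The median of all genes was -0.0296 with library totals and -0.0271 with log2(FPKM + 0.1).

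Signs of small or library-dependent changes reversed as follows. Htt was at -0.00189 with library totals, -0.00016 with FPKM (offset 0.1, with and without filter) and -0.000346 (offset 1). Leaving out a library, Htt ran from -0.00687 to 0.0521, Zbtb7c from -0.111 to 0.267 and Hba-a1 from -0.0234 to 1.06. Without Q140 Msh3+/- female 1 a further 5 genes reversed, which gives ranges over left-out libraries of -5.6 to 0.0827 (Ttr), -4.79 to 0.0964 (Mfrp), -4.86 to 0.319 (Slc4a5), -2.69 to 0.101 (Otx2) and -3.36 to 0.0602 (Prlr). For the remaining reversals the cause was not tested.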

Other observations

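Igha, the constant region of the IgA heavy chain made by plasma cells, had 0 to 0.363 CPM (median 0.0643) in Q140 Msh3-/- and 0.144 to 0.872 CPM (median 0.57) in Q140 Msh3+/-, a change of -2.61 that was not called (edgeR, adjusted p = 0.162). In 7 of 8 Q140 Msh3-/- libraries Igha was below every Q140 Msh3+/- library. Its change in Msh3-/- against Msh3+/- without Q140 was 0.13 (edgeR, adjusted p = 0.984).

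Blood markers had a median change of 0.53 between Q140 Msh3-/- and Q140 Msh3+/-, with 5 of 5 positive and none called. Hbb-bs, a haemoglobin gene, was at 0.66 (95% interval -1.02 to 2.33) and Hba-a1, another, at 0.56 (95% interval -1.09 to 2.21). Mitochondrially encoded protein genes had a median change of 0.088 with 12 of 13 positive and none at an unadjusted p under 0.05. The subunit gene mt-Nd6 was at 0.16 (edgeR, adjusted p = 0.861) and mt-Nd2 at 0.09 (edgeR, adjusted p = 0.928). Htt had 191 to 234 CPM (median 217) in Q140 Msh3-/- and 177 to 227 CPM (median 214) in Q140 Msh3+/-, and these ranges overlapped.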
